A study of Mus musculus with 8 samples.

Results

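Potassium channel genes of mouse quadriceps muscle, 98 of the 47643 genes measured, were compared between mice with and without Nup210, a transmembrane protein of the nuclear pore. The genes were taken by name, as every gene symbol that begins with Kcn and continues with letters and a number. By this rule 93 were protein-coding and 5 were noncoding RNAs. RNA of quadriceps from 4 Nup210+/+ and 4 Nup210-/- mice, labelled C57BL/6 and backcrossed to C57BL/6J per the study's methods, was sequenced, with 1 library per mouse. The Nup210-/- line is constitutive: exon 2, flanked by loxP sites, was removed by Cre expressed from Hprt, so the deletion is not limited to muscle fibers. The age and sex of these mice were not given in the sources used here, and no treatment was applied to either genotype. Values are TPM, a relative abundance per transcript length, so levels of different genes in a library can be compared.

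Potassium channels let potassium ions pass the plasma membrane along their gradient. In skeletal muscle, voltage-gated channels repolarize the fiber after an action potential, inward rectifiers and chloride channels hold the resting potential, and ATP-sensitive channels open when the energy supply of the fiber falls. Pores are built from alpha subunits, and accessory subunits alter their gating, trafficking or number at the surface.

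The libraries were first examined as a whole. Nup210 mRNA was 9.54, 10.79, 11.93 and 8.81 TPM in Nup210-/- replicates 1 to 4 and 5.71, 10.11, 9.19 and 6.71 in Nup210+/+ replicates 1 to 4. Thus the libraries labelled Nup210-/- did not have less mRNA of the targeted gene, a value per gene does not show exon 2, and every direction below rests on the labels. The summed TPM of 10 skeletal muscle fiber markers, among them Acta1, Ckm and Myh4, was 92966 to 98208 in Nup210-/- and 86280 to 91609 in Nup210+/+, without overlap. In contrast, 10 leukocyte markers summed to 114 to 130.1 TPM in Nup210-/- and 139.9 to 280.3 in Nup210+/+, and 5 fibroblast markers to 568.8 to 682 and 699.5 to 1114 TPM. The most abundant markers weigh most in these sums. As single genes, 1 of the 10 fiber markers was apart, Tnnt3 (10%, against 8.41% of all genes tested). Mb and Ttn had slightly lower mean TPM in Nup210-/- as deposited, whereas after the scaling used below all 10 fiber markers had a higher estimate. Apart and lower were 5 of 7 tested leukocyte markers (71.4%) and 2 of 5 fibroblast markers (40%), while Dcn, the most abundant of the latter, overlapped. Replicate 2 of Nup210+/+ stood apart in 6 granulocyte precursor markers, with a summed TPM of 381.7 against 0.31 to 2.12 in the other libraries. Neuron markers were near 0, with a summed TPM of at most 0.58 over 6 genes in any library, and Rbfox3 and Snap25 did not exceed 0.03 TPM.

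A small number of genes made up most of the potassium channel mRNA of this muscle. The 98 genes summed to 331.3 ± 12 TPM in Nup210-/- and 327.6 ± 14.6 in Nup210+/+ (SD, n = 4). The 5 highest, Kcna7, Kcnj11, Kcnc4, Kcnj12 and Kcnc1, took 62.9 to 67.9% of this sum in each library, and the 10 highest took 83.6 to 85.9%. At the other end, 15 genes were listed at 0 in all 8 libraries, 29 had a mean above 0 but under 0.1 TPM, and 27 had a mean from 0.1 to under 0.5 TPM. The other 27 genes, with a mean over the 8 libraries of at least 0.5 TPM, were tested, and each of them also reached that mean in both genotypes.

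**Figure D1:**
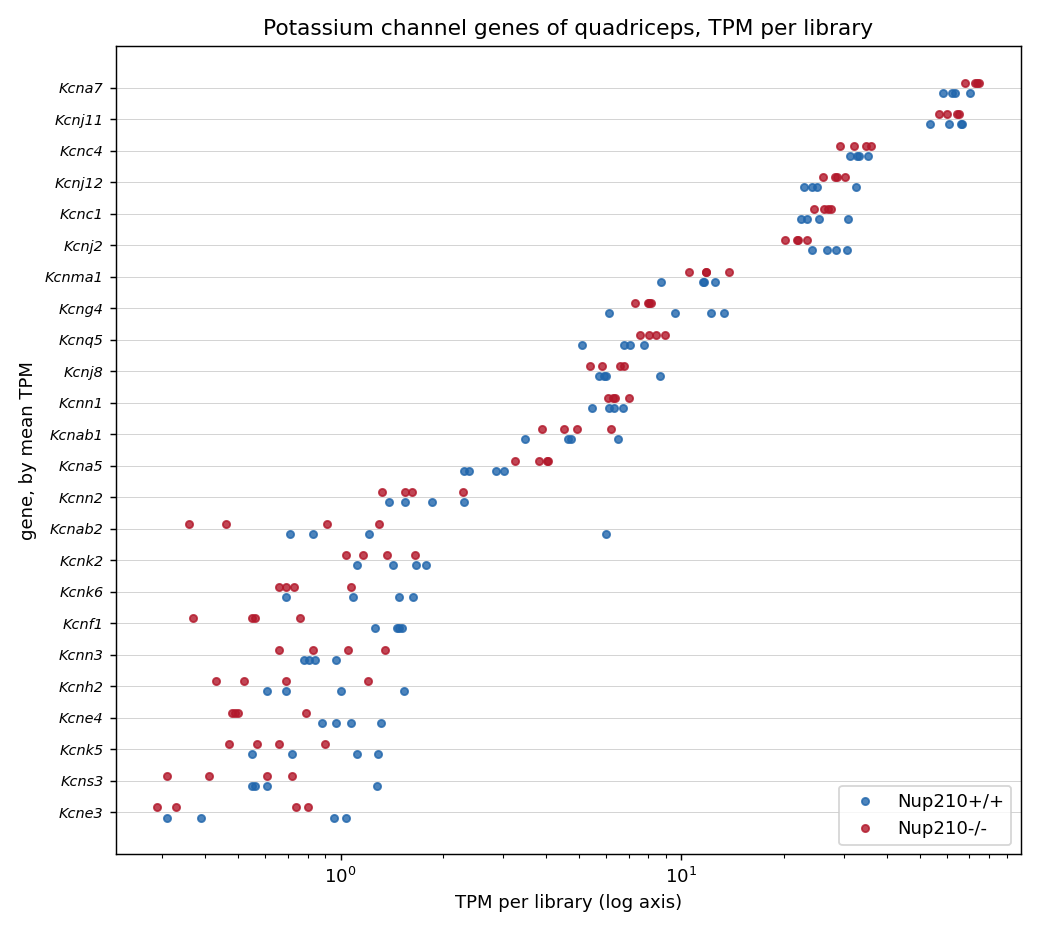
TPM (horizontal, log axis) of 24 tested potassium channel genes (vertical, ordered by mean TPM) in each of 4 Nup210+/+ (blue) and 4 Nup210-/- (red) libraries. Kcna7 and Kcnj11 lie highest, and the points of the genotypes are apart for Kcna5, Kcnf1, Kcne4 and Kcnj2.

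Kcna7, which encodes a voltage-gated channel of the Shaker family known from skeletal muscle and heart, had the highest level. It was at 67.84, 74.92, 73.96 and 72.69 TPM in Nup210-/- replicates 1 to 4 and at 63.7, 58.41, 62.3 and 70.11 in Nup210+/+. Kcnj11, the pore subunit of ATP-sensitive channels, followed at 61.7 ± 3.84 TPM in Nup210-/- and 61.9 ± 6.03 in Nup210+/+ (SD, n = 4). The levels of these 2 genes were close, with Kcna7 above Kcnj11 in 6 of 8 libraries and a ratio of TPM between 0.881 and 1.27. The Shaw-type channels Kcnc4 (33.1 ± 2.98 TPM in Nup210-/- and 33.2 ± 1.63 in Nup210+/+) and Kcnc1 (26.3 ± 1.31 and 25.5 ± 3.77 TPM) and the inward rectifiers Kcnj12 (28.3 ± 1.78 and 26.2 ± 4.29 TPM) and Kcnj2 (21.8 ± 1.33 and 27.5 ± 2.76 TPM) were the other genes with a mean of at least 20 TPM.

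The genotypes were then compared with limma on log2(scaled TPM + 1), on which differences of genes at a low TPM come out too small. None of the 27 tested genes had an adjusted p under 0.05 in limma with Benjamini-Hochberg adjustment over all 14229 genes tested, of which 0.112% did (0.0492% higher and 0.0633% lower in Nup210-/-). The count was also 0 under every other limma setting tried. The lowest adjusted p of a potassium channel gene was 0.115, for Kcna5. At an unadjusted limma p of 0.05, 8 of the 27 genes passed, 5 with a higher and 3 with a lower estimate in Nup210-/-, or 29.6% against 14.2% of all genes tested (7% higher and 7.18% lower). Estimates were higher in Nup210-/- for 15 genes and lower for 12, where 48.7% of all genes tested were higher, and the median log2 fold change of the 27 genes was 0.013, against -0.0061 over all genes tested. On TPM the genotypes did not overlap in 4 of the 27 genes, 14.8% against 8.41% of all genes tested, with 1 higher (1.54% of all genes) and 3 lower (6.87%) in Nup210-/-. On scaled TPM they were apart in 4 genes, 2 higher and 2 lower, with Kcnq5 in place of Kcnj2. Over all genes tested 9.38% were apart on scaled TPM, 680 genes higher and 654 lower. Since the adjusted threshold was passed by none, the values below describe these 8 mice.

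**Figure D2:**
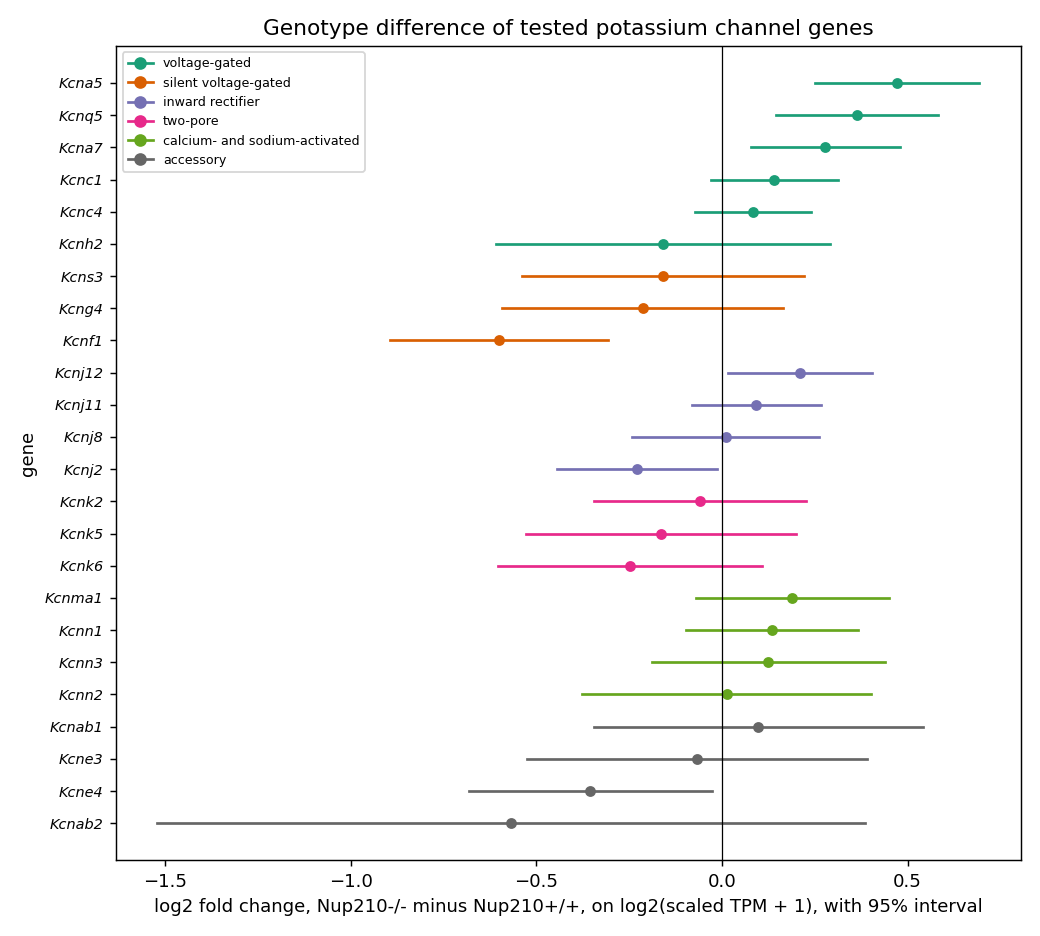
Log2 fold change (horizontal, Nup210-/- minus Nup210+/+ on log2(scaled TPM + 1)) of 24 tested genes (vertical, colored by class), with points for the limma estimate and lines for its unadjusted 95% interval. The intervals of Kcna5, Kcnq5, Kcna7 and Kcnj12 lie above 0 and those of Kcnf1, Kcnj2 and Kcne4 below 0, with no gene past an adjusted p of 0.05.

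Of the 30 voltage-gated alpha subunit genes, 9 were tested, and 7 of them had a higher estimate in Nup210-/-, 4 of these at an unadjusted p of 0.05. Over all genes tested, 48.7% had a higher estimate and 7% a higher one at that p, and the counts of the other classes are read against the same shares. Kcna5 encodes a delayed rectifier of the Shaker family, known from atrial and vascular muscle, and is among the predicted Mef2C targets of the study, which were chosen in these same libraries. It was at 4.07, 3.81, 4.03 and 3.26 TPM in Nup210-/- replicates 1 to 4 and at 2.86, 2.3, 3.01 and 2.38 in Nup210+/+. Every Nup210-/- library lay above every Nup210+/+ library, with the closest pair at 3.26 and 3.01 TPM. The gene is a single exon at chr6:126532551-126535412 on the minus strand (GRCm38, GENCODE M21). In log2 fold change this was 0.47 (SE 0.0982, adjusted p = 0.115 in limma). The two-sided exact permutation test over the 70 labelings gave p = 0.0286, the smallest it can give. Any gene without overlap on TPM gets this p, so it restates a separation found in 8.41% of all genes tested. Kcna7, described above, overlapped only through Nup210+/+ replicate 4. Its log2 fold change was 0.28 (SE 0.0889, adjusted p = 0.215 in limma).

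Kcnq5 encodes a subunit of the channels that carry the M-type current, which dampens repeated firing in excitable cells. Kcnq5 was at 8.43, 8.95, 7.58 and 8.04 TPM in Nup210-/- and at 6.81, 7.05, 7.75 and 5.12 in Nup210+/+. One library of each genotype crossed over on TPM, Nup210+/+ replicate 3 above Nup210-/- replicate 3, whereas on scaled TPM the genotypes did not overlap. For Kcnq5 the log2 fold change was 0.36 (SE 0.0965, adjusted p = 0.170 in limma). The exons of Kcnq5 overlap those of Gm26580 on the opposite strand, and whether strand was used in the counting was not given in the sources used here. The same holds for Kcnma1, which also overlaps a gene on the opposite strand.

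Kcnc1, a fast repolarizing channel, had a log2 fold change of 0.14 with a 95% interval of -0.029 to 0.31. Kcnc4 was at 0.085 (-0.072 to 0.24) and Kcnh2, the channel of the rapid delayed rectifier current of the heart, at -0.16 (-0.61 to 0.29) on the same log2 scale. Each of these intervals includes 0, and that of Kcnh2 was the widest. Without Nup210+/+ replicate 2 the estimate of Kcnh2 was -0.029, and without Nup210-/- replicate 3 it was -0.28. Summed over all 30 genes, voltage-gated mRNA was 161.8, 172.8, 173.2 and 165.1 TPM in Nup210-/- and 154.8, 148.2, 160.3 and 154.8 in Nup210+/+. The 4 sums of Nup210-/- were all above the 4 of Nup210+/+, as were the shares of the potassium channel total, 49.2 to 52.4% and 45.9 to 48.7%. Without Kcna7, an alternative chosen after the values were seen, the other 29 genes summed to 93.96, 97.9, 99.21 and 92.44 TPM in Nup210-/- and to 91.1, 89.83, 97.99 and 84.72 in Nup210+/+. These sums overlapped, as did their shares of the total, 28.5 to 29.3% and 26.4 to 28.6%, so the separation of the class rested on Kcna7. The sum of the muscle fiber markers was separated like that of the 30 genes, and its part in the result was not tested. In the limma fit all 10 fiber markers had a higher estimate in Nup210-/-, against 48.7% of all genes tested. Their median log2 fold change was 0.18, and that of the 9 tested voltage-gated genes was 0.15. More muscle fiber RNA in a sample and more mRNA of a gene per fiber cannot be told apart in whole tissue.

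The silent voltage-gated subunits form no channel on their own and alter the gating of other voltage-gated subunits when they assemble with them. All 3 tested genes of this group, of 10 in all, had a lower estimate in Nup210-/-. Kcnf1 was at 0.55, 0.76, 0.56 and 0.37 TPM in Nup210-/- replicates 1 to 4 and at 1.26, 1.46, 1.48 and 1.51 in Nup210+/+. The genotypes were far apart, since the highest Nup210-/- library was at 0.76 TPM and the lowest Nup210+/+ library at 1.26 TPM. The ratio of mean TPM was 0.392. The log2 fold change was -0.60 (SE 0.13, adjusted p = 0.117 in limma), and it was -1.16 with a pseudocount of 0.1. The exact permutation test gave p = 0.0286, which the lack of overlap fixes. Kcnf1 has a single exon in GENCODE M21 (GRCm38), at chr12:17172100-17176888 on the minus strand, with which no exon of another gene overlaps. The leukocyte and fibroblast sums were also lower in every Nup210-/- library, and their part in the value of Kcnf1 was not tested. Kcng4, the most abundant silent subunit, was at 8.14, 8.02, 7.33 and 7.97 TPM in Nup210-/- and at 9.55, 12.2, 13.31 and 6.12 in Nup210+/+. The Nup210+/+ libraries spanned both sides of the Nup210-/- libraries, and the log2 fold change of -0.21 had a 95% interval of -0.59 to 0.16. Kcns3 had a log2 fold change of -0.16 (-0.54 to 0.22). Single libraries moved both estimates: Kcng4 was at -0.12 without Nup210+/+ replicate 2 or 3 and at -0.39 without replicate 4, and Kcns3 was at -0.046 without Nup210+/+ replicate 3 and at -0.088 without Nup210-/- replicate 2.

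Kcna5, Kcnq5 and Kcnf1 are also in the study's own list of changed genes, which was drawn from these libraries and is no independent evidence of their direction. Because the study asked whether Mef2C function was altered, the 250 bases before the annotated start of Kcna5, Kcnf1 and Kcnj2 are given here, from RefSeq on GRCm38.p6, 5′ to 3′ along the gene. For Mef2C the study reported few changed genes, mostly immune related, and no change in structural target genes known from cultured myotubes. It proposes that Mef2C activity might be compensated in this tissue. Capitals mark E-boxes, here any match to CANNTG, a general consensus that includes the sites of myogenic factors of the MyoD family.
Kcna5, chr6:126535556-126535805, minus strand: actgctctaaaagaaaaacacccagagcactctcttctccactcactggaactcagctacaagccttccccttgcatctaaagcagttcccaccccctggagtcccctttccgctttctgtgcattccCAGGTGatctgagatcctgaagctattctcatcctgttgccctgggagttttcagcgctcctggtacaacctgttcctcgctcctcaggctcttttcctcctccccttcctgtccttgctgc
Kcnf1, chr12:17176889-17177138, minus strand: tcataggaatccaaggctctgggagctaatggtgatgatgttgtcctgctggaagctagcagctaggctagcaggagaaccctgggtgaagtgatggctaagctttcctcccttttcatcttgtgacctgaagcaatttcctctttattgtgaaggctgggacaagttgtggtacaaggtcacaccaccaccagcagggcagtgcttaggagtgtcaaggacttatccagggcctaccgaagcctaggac
Kcnj2, chr11:111065914-111066163, plus strand: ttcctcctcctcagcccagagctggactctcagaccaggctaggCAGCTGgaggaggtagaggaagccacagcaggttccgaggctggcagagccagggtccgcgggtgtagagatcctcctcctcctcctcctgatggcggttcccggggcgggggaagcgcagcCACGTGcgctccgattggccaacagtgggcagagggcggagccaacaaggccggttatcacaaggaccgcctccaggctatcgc
The window of Kcna5 lies before the start in RefSeq, which is upstream of that in GENCODE M21. These 3 genes were chosen because their genotypes did not overlap on TPM. The window of Kcne4, the fourth such gene, reaches into its first exon as annotated in GENCODE M21 and is not printed. Kcna5 has 1 E-box in this window, Kcnf1 has 0 and Kcnj2 has 2. An E-box was found in 66.2% of the 32851 windows of this length, so its presence sets none of these genes apart. The MEF2 consensus, read on both strands, was found in 2.92% of all windows and in 0 of the 32 windows of the 21 tested potassium channel genes that have one. These matches and their absence describe letters in a short window only.

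**Figure D3:**
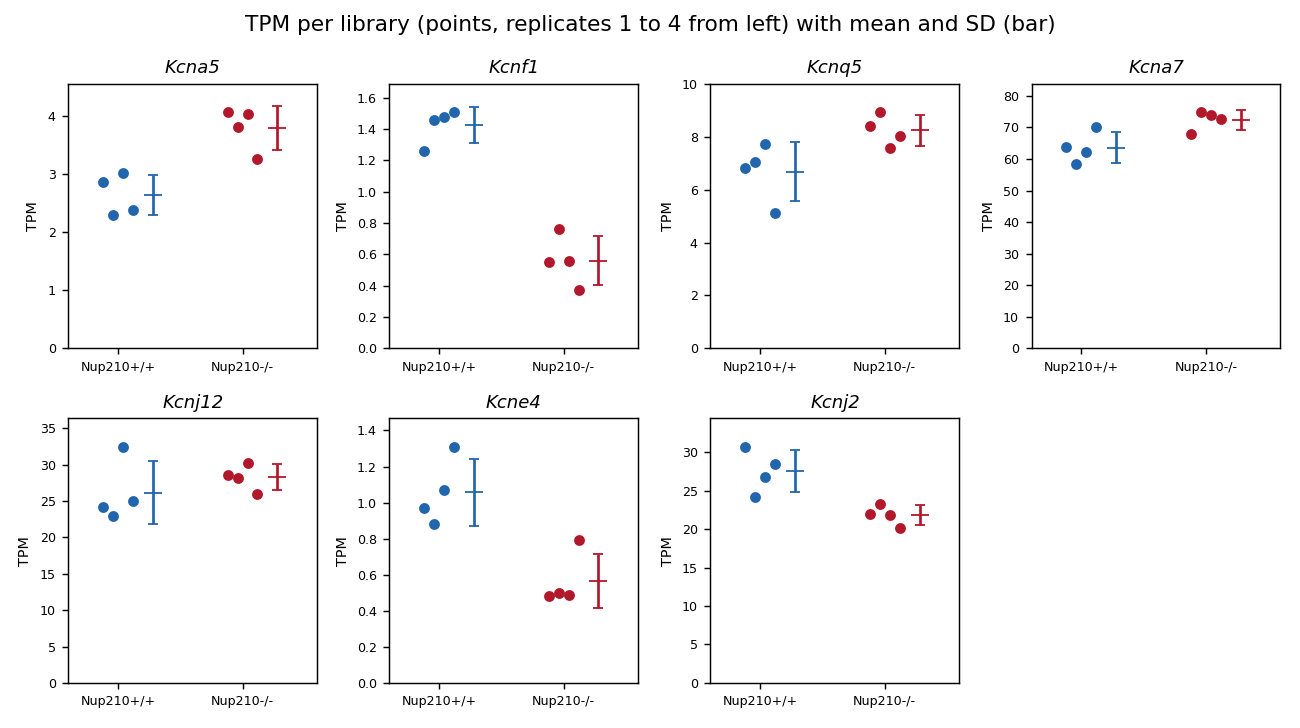
TPM (vertical, from 0) of 7 potassium channel genes with an unadjusted limma p under 0.05, in the order of that p, for Nup210+/+ (blue) and Nup210-/- (red), with replicates 1 to 4 from left to right as points and the mean and SD as a bar. Points of the genotypes are apart for Kcna5, Kcnf1, Kcne4 and Kcnj2 and overlap for Kcnq5, Kcna7 and Kcnj12.

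Among the inward rectifiers, 4 of 15 genes were tested, and the 2 strong rectifiers had estimates of opposite sign. Kcnj2 encodes Kir2.1, which holds the resting potential of the muscle fiber. It was at 21.99, 23.32, 21.85 and 20.09 TPM in Nup210-/- and at 30.73, 24.18, 26.8 and 28.47 in Nup210+/+. Every Nup210-/- library was below every Nup210+/+ library on TPM, by less than 1 TPM at the closest pair, whereas on scaled TPM the genotypes overlapped. The log2 fold change was -0.23 (SE 0.0953, adjusted p = 0.322 in limma), with an exact permutation p of 0.0286 for TPM and 0.0571 after scaling. The value for TPM is fixed by the lack of overlap. Kcnj2 lies at chr11:111066164-111076821 on the plus strand (GRCm38). Kcnj12 encodes the related Kir2.2 and was at 28.66, 28.21, 30.3 and 25.99 TPM in Nup210-/- and at 24.21, 22.98, 32.49 and 25 in Nup210+/+. Nup210+/+ replicate 3 was the highest of all 8 libraries, and the other 3 of its genotype were the lowest. For Kcnj12 the log2 fold change was 0.21 (SE 0.0856, adjusted p = 0.312 in limma).

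The subunits of ATP-sensitive channels differed little. Kcnj11 had a log2 fold change of 0.093 with a 95% interval of -0.081 to 0.27, and Kcnj8, the pore subunit found in vascular muscle and pericytes, one of 0.0096 (-0.24 to 0.26). Abcc9, which encodes the sulfonylurea receptor that assembles with them, was at 62.4 ± 3.61 TPM in Nup210-/- and 61.4 ± 6.53 in Nup210+/+ (SD, n = 4), at a level close to that of Kcnj11. Its log2 fold change was 0.12 (-0.015 to 0.25). Abcc8, the other receptor, was at 1.02 TPM and 0.863 TPM on average.

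The 3 tested genes of the two-pore family, which carries background potassium current and counts 14 genes, had lower estimates in Nup210-/-. Kcnk6 was at -0.25 (95% interval -0.60 to 0.11), Kcnk5 at -0.16 (-0.53 to 0.20) and Kcnk2, a mechanosensitive channel, at -0.059 (-0.35 to 0.23) in log2 fold change. In Nup210+/+, Kcnk6 was at 1.09, 1.48, 1.63 and 0.69 TPM, and these libraries overlapped those of Nup210-/-, at 0.73, 1.07, 0.69 and 0.66 TPM. All intervals of this family include 0.

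The 4 tested genes of calcium-activated channels, of 8 genes in the calcium- and sodium-activated class, had higher estimates, and none passed an unadjusted p of 0.05. Kcnma1, the pore of the large-conductance BK channel, was at 12 ± 1.33 TPM in Nup210-/- and 11.1 ± 1.66 in Nup210+/+ (SD, n = 4), and the log2 fold change was 0.19 (95% interval -0.07 to 0.45). Without Nup210+/+ replicate 2, where it was lowest at 8.73 TPM, this was 0.088. The small-conductance channels Kcnn1, Kcnn3 and Kcnn2 had log2 fold changes of 0.14 (-0.097 to 0.37), 0.13 (-0.19 to 0.44) and 0.013 (-0.38 to 0.40). Kcnn3 is known to be strongly raised in denervated muscle. It was at 0.66, 1.35, 1.05 and 0.83 TPM in Nup210-/- and 0.81, 0.84, 0.97 and 0.78 in Nup210+/+, with overlap. In a list of 11 denervation response genes, 9 were tested and none passed an adjusted p of 0.05, while 1 had an unadjusted p under 0.05 (11.1%, against 14.2% of all genes tested), Gadd45a, at a log2 fold change of 0.32 (adjusted p = 0.169 in limma).

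Accessory subunits were mostly low. Of 16 genes 4 were tested, and none of the 4 KChIP and 4 BK beta genes reached a mean of 0.5 TPM. Kcne4, a single-pass subunit known to inhibit several voltage-gated channels, was at 0.48, 0.5, 0.49 and 0.79 TPM in Nup210-/- and at 0.97, 0.88, 1.07 and 1.31 in Nup210+/+. The genotypes did not overlap on TPM or on scaled TPM, and replicate 4 was the highest library of either genotype. In log2 fold change Kcne4 was at -0.35 (SE 0.145, adjusted p = 0.314 in limma), with an exact permutation p of 0.0286 fixed by the lack of overlap. It lies at chr1:78816758-78820028 on the plus strand (GRCm38), and the part of the lower leukocyte and fibroblast sums in its value was not tested. Kcne3, a partner of Kcnc4 in skeletal muscle, was at 0.54 ± 0.267 TPM in Nup210-/- and 0.675 ± 0.378 in Nup210+/+ (SD, n = 4), and the log2 fold change was -0.067 (-0.52 to 0.39). The cytoplasmic subunit Kcnab1 was at 4.9 ± 0.982 and 4.84 ± 1.25 TPM (SD, n = 4), and the log2 fold change was 0.098 (-0.35 to 0.54).

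In Kcnab2 a single library decided the estimate. It was at 1.3, 0.36, 0.91 and 0.46 TPM in Nup210-/- and at 0.83, 6.01, 1.21 and 0.71 in Nup210+/+. Replicate 2 of Nup210+/+ was 6.01 TPM, the library that also held 381.7 TPM of granulocyte precursor markers, and the part of these cells in the value was not tested. The log2 fold change of -0.57 (95% interval -1.52 to 0.38) was -0.10 without this library. Kcnab2 shares exon sequence with Gm16334 on the same strand.

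**Figure D4:**
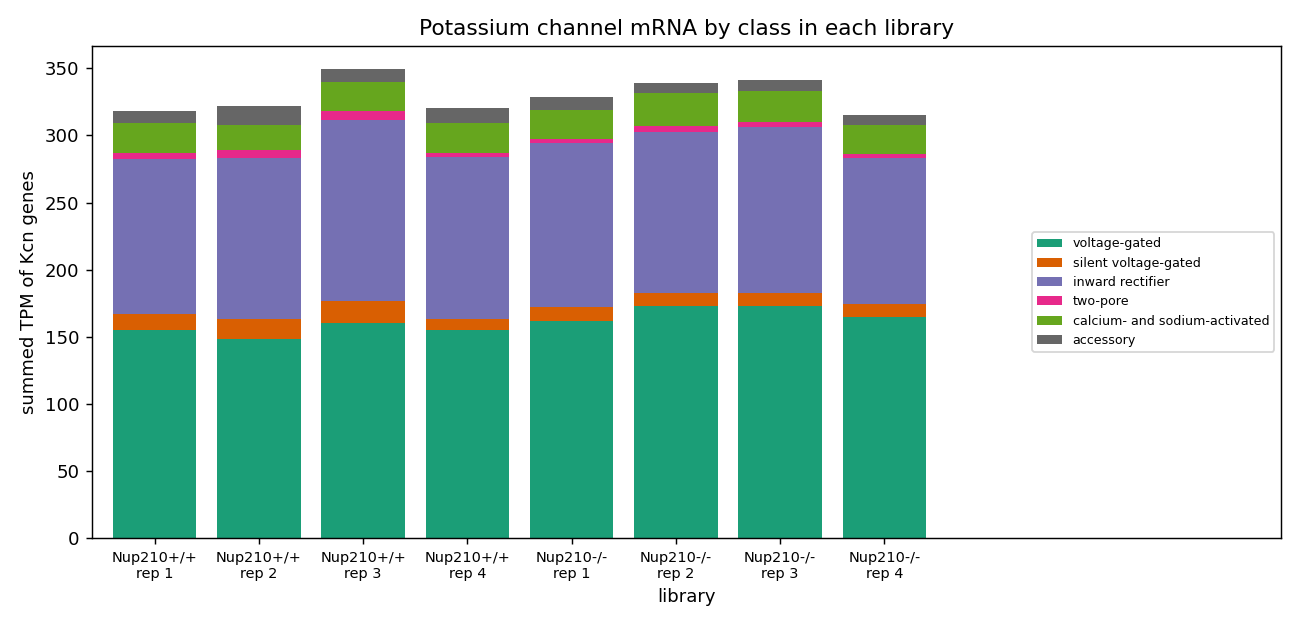
Summed TPM (vertical, from 0) of the potassium channel genes by class, stacked, in each of the 8 libraries (horizontal). Voltage-gated genes sum to 161.8 to 173.2 TPM in Nup210-/- and 148.2 to 160.3 in Nup210+/+, while inward rectifiers range over 108.9 to 123.9 and 116 to 135.1 TPM.

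Genes under the minimum for testing included many channels known from nerve, heart and epithelia, and 14 of these 71 genes reached 0.5 TPM in at least 1 library. Of all 71, the genotypes were apart on TPM in Kcnu1 alone, which was picked after its values were seen. The share apart over all genes under the minimum is not given here, so this count has no background. Kcnu1 encodes a pH-sensitive channel known from sperm. It was at 0.67, 0.63, 1.03 and 0.67 TPM in Nup210-/- and at 0.08, 0.07, 0.22 and 0.41 in Nup210+/+. With a minimum mean of 0.1 TPM, under which 54 potassium channel genes and 18172 genes in all were tested, its log2 fold change was 0.58 (SE 0.13, adjusted p = 0.156 in limma). Kcnn4, an intermediate-conductance channel of leukocytes, reached 0.98 TPM in Nup210+/+ replicate 2 and lay between 0.25 and 0.57 TPM elsewhere. The noncoding Kcnq1ot1, transcribed against the imprinted gene Kcnq1, was at 0.245 ± 0.0387 TPM in Nup210-/- and 0.253 ± 0.0506 in Nup210+/+ (SD, n = 4). Its exon overlaps Kcnq1 on the opposite strand, so the assignment of reads between them is uncertain.

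Genes outside the Kcn names that act with these channels were read beside them. Of 14 partners, which include regulatory subunits, receptors and anchors, 9 were tested, 0 had an adjusted limma p under 0.05 and 2 passed an unadjusted p of 0.05 (22.2%, against 14.2% of all genes tested). Lrrc52, a gamma subunit of channels of the BK family, had a log2 fold change of -0.37 (adjusted p = 0.324 in limma), and Ank3, a membrane anchor, one of 0.26 (adjusted p = 0.187 in limma). Of 24 other genes of muscle excitability 18 were tested, 0 had an adjusted limma p under 0.05, and 6 higher and 2 lower estimates had an unadjusted p under 0.05 (44.4%, against 14.2% of all genes tested). On TPM the genotypes were apart in 2 of the 18 tested genes (11.1%, against 8.41% of all genes tested). These were Cacna1s, the calcium channel of the T-tubule, and Fxyd5, a modulator of the sodium pump. Cacna1s was at 299, 322, 318.2 and 323.4 TPM in Nup210-/- and at 293.1, 285.8, 275.4 and 290.3 in Nup210+/+, with a log2 fold change of 0.24 (adjusted p = 0.207 in limma). Fxyd5 was at 10.41, 13.1, 9.43 and 7.73 TPM in Nup210-/- and at 21.1, 30.69, 19.76 and 17.85 in Nup210+/+, with a log2 fold change of -0.97 (adjusted p = 0.0825 in limma). The leukocyte and fibroblast sums were lower in the same libraries, and their part in the value of Fxyd5 was not tested. With library weights its adjusted p in limma was 0.0413, the lowest over 19 alternatives, of which the highest was 0.219.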

How the data were processed

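Quadriceps RNA of 4 Nup210-/- and 4 Nup210+/+ mice was analysed, with genotypes and replicate numbers from the sample labels. Per the methods, the authors selected polyadenylated RNA, made directional single-end libraries, trimmed reads with cutadapt 2.3, aligned them to mm10 with STAR 2.7.0d and estimated expression with RSEM 1.3.1. The authors deposited TPM per gene with 2 decimals, without pooling replicates. TPM are relative within a library and the depth behind them is unknown, so counting error cannot be given.

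Libraries were scaled by median-of-ratios factors from 15225 genes (0.936 to 1.12), and log2 was taken after a pseudocount of 1. The 14229 genes with a mean of at least 0.5 TPM entered a limma 3.58.1 fit under R 4.3.3 (eBayes with trend, genotype as the only term, Benjamini-Hochberg adjustment). Intervals are unadjusted. Single genes were compared by two-sided exact permutation tests on TPM over 70 labelings. The limma step was tested on simulated data. The genes, lists and rule for naming genes were chosen with earlier results of these data known. The rule named genes in the study's list, the 10 highest, those without overlap, the 5 of lowest p in each direction, and the extremes of each family. Genes named beyond it were chosen after their values were seen. Some tested genes are counted but not reported here by name or plotted. Positions and exons are from GENCODE M21 (GRCm38), in which all 98 genes were found, and promoter windows are from RefSeq (GRCm38.p6), for 71 genes. Of the 27 tested genes, the exons of 9 overlap a gene on the opposite strand and of 1 a gene on the same strand. Pairs of libraries shared the same TPM for at most 201 tested genes, so each library was counted as a separate sample. Python 3.11.15 and matplotlib 3.10.9 made the figures. P-values measure the spread between mice, with 1 library per mouse.

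Alternatives were pseudocounts of 0.1 and 0.5, minimums of any TPM above 0, 0.1 and 1, TPM as deposited, upper-quartile scaling, eBayes without trend and robust, library weights, the replicate number as a block, and each library left out.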

Additional observations from a re-analysis of the deposited data

Results flagged for a closer look

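For 66 groups of 4 libraries of a genotype, the gap between an extreme library and its nearest neighbor was divided by the range of the group. It passed Dixon's critical value in 5 groups, and chance gives about 1 in 20. Kcnab2 reached 6.01 TPM in Nup210+/+ replicate 2, with 0.71 to 1.21 TPM in the others of its genotype. Kcnj8 reached 8.65 TPM in Nup210+/+ replicate 3, with 5.74 to 6.01 TPM in the others of its genotype. The summed markers of leukocytes (280.3 TPM), fibroblasts (1114 TPM), adipocytes (647 TPM), endothelium (90.2 TPM) and smooth muscle with pericytes (190.2 TPM) were all highest in that library. Kcns3 reached 1.28 TPM in that library, with 0.55 to 0.61 TPM in the others of its genotype. Among Nup210-/- libraries, Kcne4 reached 0.79 TPM in replicate 4, with 0.48 to 0.5 TPM in the others. Kcnk6 reached 1.07 TPM in replicate 2, with 0.66 to 0.73 TPM in the others. What lies behind these single values was not tested.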

How the results depend on the processing

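No potassium channel gene passed an adjusted p of 0.05 under any alternative run, and the lowest adjusted p was 0.0718, for Kcna7 without Nup210+/+ replicate 4. The lists of genes at an unadjusted p of 0.05 included Kcna5, Kcna7 and Kcnq5 under all 19 alternatives, and Kcnf1 under all but the minimum of 1 TPM, which leaves it out. Kcnj2, Kcnj12 and Kcne4 were each past it in 3 of the 8 fits without 1 library. Without 1 library the count was 5 to 9, with 5 without Nup210-/- replicate 1 or 3 or Nup210+/+ replicate 1, and the genotypes were apart in 4 to 7 genes. With a minimum of 1 TPM, which tests 20 of the 27 genes, they were apart in 2. Shares over all genes are not given for these settings, so these counts cannot be read against a background. Genotypes also separate more easily with fewer libraries. The median log2 fold change of the tested potassium channel genes was 0.095 with that minimum, -0.045 with TPM as deposited, which moves the median of all genes to -0.085, and -0.0031 to 0.095 without 1 library. Over all genes tested, 16 passed an adjusted p of 0.05 in limma, 84 with library weights, 27 with a minimum of 1 TPM, 1 with any TPM above 0, 0 with a minimum of 0.1 TPM, upper-quartile scaling or eBayes without trend, and 0 to 10 without 1 library. With the replicate number as a block, 0 genes of the table and 0 potassium channel genes passed, and 7 of the latter had an unadjusted p under 0.05. Same-numbered mice deviated together with correlations from -0.03 to 0.09, so the values gave the replicate block little pairing to use. Such correlations cannot show whether the mice were matched by number, and the labels do not say. Among the genes followed in the alternatives, estimates near 0 turned sign. With TPM as deposited these were Kcnj11 (-3.2e-04), Kcnc4 (-0.0072) and Kcnn2 (-0.045), and with library weights Kcnn2 (-0.025). Without 1 library they were Kcnn2 (-0.10 to 0.13), Kcnab1 (-0.052 to 0.26) and Kcne3 (-0.16 to 0.037). Kcnj8, at 0.0096 after scaling, was not followed. Its mean TPM as deposited was 6.15 in Nup210-/- and 6.59 in Nup210+/+. The log2 ratio of Kcnj12 to Kcnj2 TPM differed by 0.37 to 0.58 without 1 library. The cause of these moves was not tested. Without 1 library, estimates that kept their sign but moved by over 1.5 times included Kcnj11 (0.031 to 0.13), Kcnc4 (0.043 to 0.12), Kcnn1 (0.054 to 0.21) and Kcnk2 (-0.12 to -0.011). The depth behind the TPM is unknown.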

Other observations

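The ratio of Kcnj12 to Kcnj2 TPM within a library does not depend on scaling, and was examined after the values of both genes were seen. It was 1.3, 1.21, 1.39 and 1.29 in Nup210-/- replicates 1 to 4 and 0.788, 0.95, 1.21 and 0.878 in Nup210+/+. Nup210+/+ replicate 3 and Nup210-/- replicate 2 were nearly equal, and the other 3 Nup210+/+ libraries were below every Nup210-/- library. The log2 ratio was higher by 0.46 in Nup210-/- (two-sided exact permutation test, p = 0.0571). Without 1 library the difference was 0.37 to 0.58, with exact permutation p from 0.0286 to 0.0857, the lowest without Nup210+/+ replicate 3.

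Low genes with a single high library were Kcnj13, at 1.51 TPM in Nup210-/- replicate 2 against at most 0.55 TPM elsewhere, Kcnk12, at 0.76 TPM in Nup210+/+ replicate 2 against at most 0.06 TPM, and Kcnmb2, at 0.72 TPM in Nup210+/+ replicate 4 against at most 0.14 TPM. These 3 were chosen after their values were seen.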
